A study of Homo sapiens with 6 samples.

Results

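The last interval of an androgen time course in LNCaP cells is described here, from 24 h to 48 h of dihydrotestosterone (DHT), the most potent natural androgen. LNCaP is an established human prostate cancer line that responds to androgen and needs it to grow well. Before treatment the cells had been held for some days in medium free of phenol red, with serum stripped of steroids by charcoal and dextran, and all treated cells then received 10 nM DHT. Untreated cells at 0 h and cells after 3, 6, 12, 24 and 48 h of DHT gave 1 total RNA library each, so the interval compares 2 of 6 libraries, which held 20587956 counts at 24 h and 15046808 counts at 48 h. The table listed 17990 genes, of which 11916 averaged 20 counts or more across all libraries and were compared.

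Levels are in CPM, counts scaled to the same total in each library, and the change is the log2 of (CPM + 1) at 48 h over (CPM + 1) at 24 h, a scale that understates the change of low genes. Since each time was sequenced from a single library, no change could be set against a spread between cultures, no p-value is given, and a change of at least 2-fold is a rule of size. Intervals are exact 95% intervals that cover counting error only. In RNA of whole cultures, a change in the share of cells of a kind and a change in RNA per cell cannot be told apart.

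Androgen drives genes of secretion and lipid synthesis in prostate cells, in part through the sterol-sensing factors SREBP1 and SREBP2 and their escort protein SCAP. The proteins INSIG1 and INSIG2 hold that escort back in the endoplasmic reticulum when sterols are plentiful. Cell division genes follow another logic. They are held silent outside G2 and mitosis by repressor complexes at a promoter element with the core TTTGAA, and are activated through CCAAT boxes bound by the factor NF-Y. Genes for amino acid supply and tRNA charging are activated by the factor ATF4 at an element with the core TGATGCAA.

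These letters were looked for, on both strands, in RefSeq promoter windows (GRCh38.p14, 250 bases before to 50 bases after the start of a transcript), which were found for 9560 of the 11916 genes. HMMR and ASPM, mitosis genes that were over 2-fold higher at 48 h and hold several matches, are shown first. Capitals mark CCAAT or its reverse complement ATTGG, and TTTGAA or its reverse complement TTCAAA, in the 250 bases before the start. In HMMR a CCAAT and an ATTGG overlap.
HMMR, chr5:163460382-163460631, plus strand: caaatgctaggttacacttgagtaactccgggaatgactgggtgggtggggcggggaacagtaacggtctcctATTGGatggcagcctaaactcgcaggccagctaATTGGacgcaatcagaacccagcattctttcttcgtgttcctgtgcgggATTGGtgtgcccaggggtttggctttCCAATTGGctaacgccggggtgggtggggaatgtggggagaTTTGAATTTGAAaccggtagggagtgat
ASPM, chr1:197146670-197146919, minus strand: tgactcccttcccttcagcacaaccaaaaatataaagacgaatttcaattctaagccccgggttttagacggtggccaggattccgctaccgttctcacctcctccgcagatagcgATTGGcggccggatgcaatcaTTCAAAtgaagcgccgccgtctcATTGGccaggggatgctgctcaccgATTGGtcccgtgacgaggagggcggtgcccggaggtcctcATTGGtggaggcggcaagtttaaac

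CCAAT boxes are also found before 3 genes from other lists that moved in different directions. SCD, of fatty acid synthesis, and INSIG1, of cholesterol synthesis and uptake, were over 2-fold higher and CALR, a chaperone, was 1.65-fold lower at 48 h. Capitals mark CCAAT or ATTGG, and in INSIG1 also the E-box CACGTG.
SCD, chr10:100346983-100347232, plus strand: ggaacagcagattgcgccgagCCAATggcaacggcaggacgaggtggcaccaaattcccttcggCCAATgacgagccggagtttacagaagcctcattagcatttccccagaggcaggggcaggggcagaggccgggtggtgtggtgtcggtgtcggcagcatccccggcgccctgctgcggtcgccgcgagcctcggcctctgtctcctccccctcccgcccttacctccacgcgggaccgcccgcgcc
INSIG1, chr7:155297628-155297877, plus strand: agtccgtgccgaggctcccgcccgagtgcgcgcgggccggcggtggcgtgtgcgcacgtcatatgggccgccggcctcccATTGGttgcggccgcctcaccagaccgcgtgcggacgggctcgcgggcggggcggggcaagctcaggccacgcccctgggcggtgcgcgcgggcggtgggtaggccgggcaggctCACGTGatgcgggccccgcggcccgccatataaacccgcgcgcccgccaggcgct
CALR, chr19:12938359-12938608, plus strand: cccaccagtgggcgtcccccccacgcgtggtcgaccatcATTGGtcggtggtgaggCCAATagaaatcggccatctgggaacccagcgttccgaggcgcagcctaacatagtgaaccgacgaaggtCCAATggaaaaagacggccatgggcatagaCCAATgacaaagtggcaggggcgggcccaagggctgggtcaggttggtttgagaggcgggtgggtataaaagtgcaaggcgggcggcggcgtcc

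The TGATGCAA core was in 6 of 16 tRNA synthetase promoters (37.5%) and in 0.701% of all promoters. In the list of ATF4 targets and serine synthesis it was in 1 of 14 (7.14%), CHAC1, a glutathione-degrading enzyme that was among the genes at least 2-fold lower. The 24 bases around each match are shown with the core, or its reverse complement TTGCATCA, in capitals.
AARS1, chr16:70289678-70289701, minus strand: tctcgcagTTGCATCAgccaagtt
CARS1, chr11:3057410-3057433, minus strand: ggcggcggTTGCATCAgattctag
IARS1, chr9:92293695-92293718, minus strand: tcagcgcgTTGCATCAcctccgtg
MARS1, chr12:57488056-57488079, plus strand: ggttccggTTGCATCAgcgaggga
NARS1, chr18:57621807-57621830, minus strand: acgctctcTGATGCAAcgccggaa
TARS1, chr5:33440959-33440982, plus strand: cctttcgaTTGCATCAgctggtcc
CHAC1, chr15:40953254-40953277, plus strand: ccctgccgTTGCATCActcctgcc

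Between 24 h and 48 h most genes stayed close to their level, and more genes were higher than lower. At 48 h 182 genes were at least 2-fold higher, 1.53% of those compared, and 22 were at least 2-fold lower, 0.185%. With a 1.5-fold rule 1152 genes were higher (9.67%) and 190 lower (1.59%), and 10574 genes (88.7%) lay within 1.5-fold. Counts of list members past either fold, given below, are to be set beside these shares of higher and lower genes. The median gene changed by 0.08, and 8 genes were past 4-fold upward and 1 downward. Under TMM scaling, which moved the median gene to -0.02, the counts were 124 higher and 33 lower, so the share of higher genes among those past 2-fold was 79.0% against 89.2%. At the edge of the rule, FXYD5 was just inside with 1.0004 and PALM just outside with 0.997 on the higher side, and TUBA3D with -1.002 and JAM3 with -0.98 on the lower side.

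**Figure D1:**
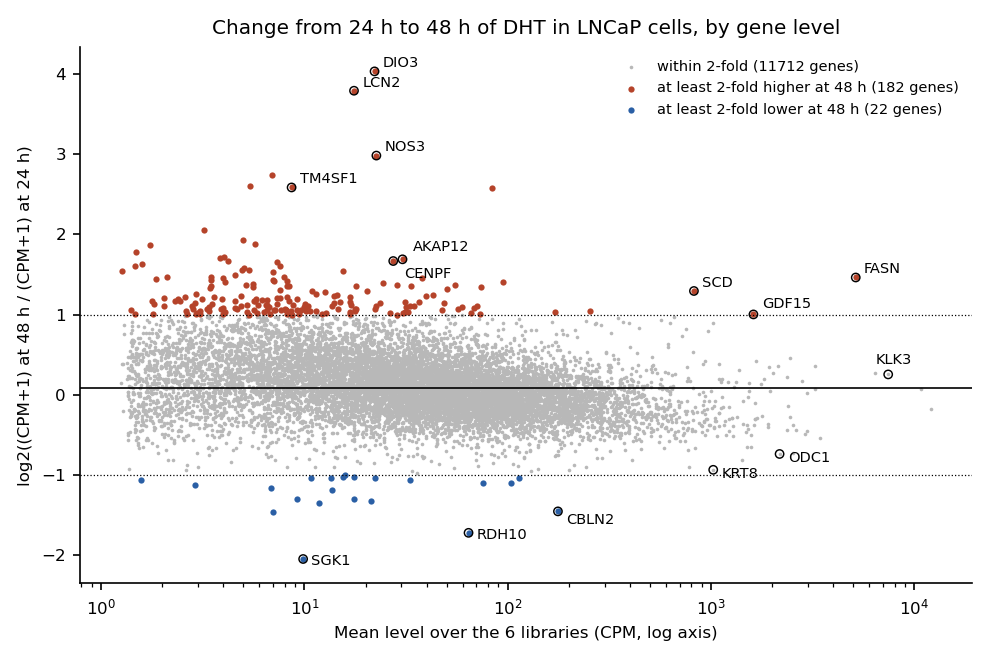
Change from 24 h to 48 h on the log2(CPM + 1) scale (vertical axis) against the mean CPM over the 6 libraries (horizontal, log axis), each point a gene; dotted lines mark 2-fold and the solid line the median gene. The 182 higher genes lie mostly at low levels, and FASN, SCD and GDF15 have the highest mean levels among them.

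The genes past 2-fold upward were mostly of low level and rich in A and T. Their median level at 24 h was 4.13 CPM, against 19.2 CPM for the lower genes and 32.2 CPM for all genes. In the fifth of genes with the lowest mean level the median change was 0.26 and 109 genes were at least 2-fold higher, and in the fifth with the highest level the median was -0.08 and 5 genes were. Transcripts in the tenth with the lowest GC content, at a median of 37.4% GC, had a median change of 0.37 and held 66 of the higher genes. Classes of middle GC content had medians down to -0.06, and the tenth with the highest GC content, at 64.6%, had 0.15. With that trend removed, in the 11140 genes with a GC value, 84 genes were at least 2-fold higher (0.754%) and 25 lower (0.224%), and 81 and 20 of these were also called without the correction, out of 171 and 21. Values with the trend removed are therefore given beside some of the lists below. For lists without one there, the median so treated was 0.20 for DNA replication, 0.59 for cyclin-dependent kinase inhibitors and 0.13 for antioxidant genes. It was -0.40 for endoplasmic reticulum folding, -0.33 for vesicle transport, -0.32 for ATF4 targets and -0.31 for splicing. Over all genes it was -0.01, where the median was 0.08 without the correction, so each median so treated is read against -0.01. Where no such value is given, an effect of the trend is not excluded.

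The course of each gene was read against its range over 0, 3 and 6 h, widened by 1.5-fold at both ends. Of the 182 higher genes, 47 were below that range at 24 h and back inside it at 48 h. Another 39 were inside it at 24 h and above it at 48 h, and 11 were above it at 24 h and higher again at 48 h. For 82 genes both levels were inside the range, 2 went from below to above, and 1 stayed below. The 6 h library sets much of this: against 0 h and 3 h alone, 65 genes went from inside to above, 43 were above at both times, and 14 were inside at both. All of these classes share the 24 h library that the rule used, so they describe the 182 genes only.

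The largest gain in CPM was that of FASN. It encodes fatty acid synthase, the multienzyme that builds palmitate. Its level was 2368 CPM at 0 h, 2645 at 3 h, 1549 at 6 h, 3242 at 12 h, 5610 at 24 h and 15476 at 48 h. That is 2.76-fold from 24 h to 48 h (95% interval 2.74 to 2.78), and its share of all counts went from 0.561% to 1.55%, above every other library.

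SCD, the desaturase that makes oleate from stearate, read 422, 428, 353, 578, 914 and 2246 CPM in the order of time. It was 2.46-fold higher at 48 h than at 24 h (interval 2.41 to 2.50). ME1, the malic enzyme that supplies NADPH, stood at 78.5 CPM at 24 h and 171 CPM at 48 h, after 31.9 to 58.0 CPM from 0 h to 12 h. ACSL1, which activates long-chain fatty acids with coenzyme A, was at 298 CPM and then 618 CPM. It lies on chromosome 4, and the 12 h library held a median of only 10.4% of the level expected for the 388 genes there and 8.04% for 165 genes of distal chromosome 15. Courses of genes in those regions, 16 of the higher and 1 of the lower genes, are therefore read without the 12 h point. UGT2B11, UGT2B28 and CENPE below are among them.

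In the list of 18 measured fatty acid synthesis genes these 4 were the only ones past 2-fold, where 1.53% of all genes were upward. None was past 1.5-fold downward. The list's median change was 0.36 against 0.08 for all genes, and 0.18 with the GC trend removed, where ME1 fell under 2-fold and the other 3 did not. The remaining members were within 1.5-fold, among them SREBF1, the gene for SREBP1, with 0.37, ACACA, the enzyme that makes malonyl coenzyme A, with 0.16, and ACLY, which makes cytosolic acetyl coenzyme A, with -0.31. The summed level of the list was 16441 CPM at 24 h and 29813 CPM at 48 h, of which FASN was 5610 CPM and 15476 CPM. Under TMM and under median-of-ratios scaling ACSL1 and INSIG1 came in under 2-fold. CCAAT was in 11 of 17 promoters of this list (64.7%), against 43.8% of all promoters, and the sterol element TCACCCCAC was in 2 of 17, ACSL1 and MID1IP1, and in 0.533% of all.

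Cholesterol genes changed little by comparison. INSIG1, the sterol-regulated anchor whose promoter is shown above, was the only member of 25 past 2-fold, with 35.0, 43.6, 63.0, 182, 231 and 473 CPM from 0 h to 48 h. STARD4, a cholesterol carrier, and IDI1, an isomerase of the mevalonate pathway, were the others past 1.5-fold, with changes of 0.72 and 0.63. SQLE, which epoxidises squalene, stood at 71.0 CPM and 65.2 CPM. The list's median was 0.18, and 0.07 with the GC trend removed. CCAAT was in 16 of 19 of its promoters (84.2%).

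The list of 20 fatty acid oxidation genes had a median of -0.02, and -0.03 with the GC trend removed, with none past 2-fold. Past 1.5-fold there were 2 genes upward and none downward, and EHHADH had the highest change, 0.71. CPT1A, the gatekeeper of fatty acid entry into mitochondria, had the lowest, -0.47, and went from 308 CPM to 223 CPM.

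**Figure D2:**
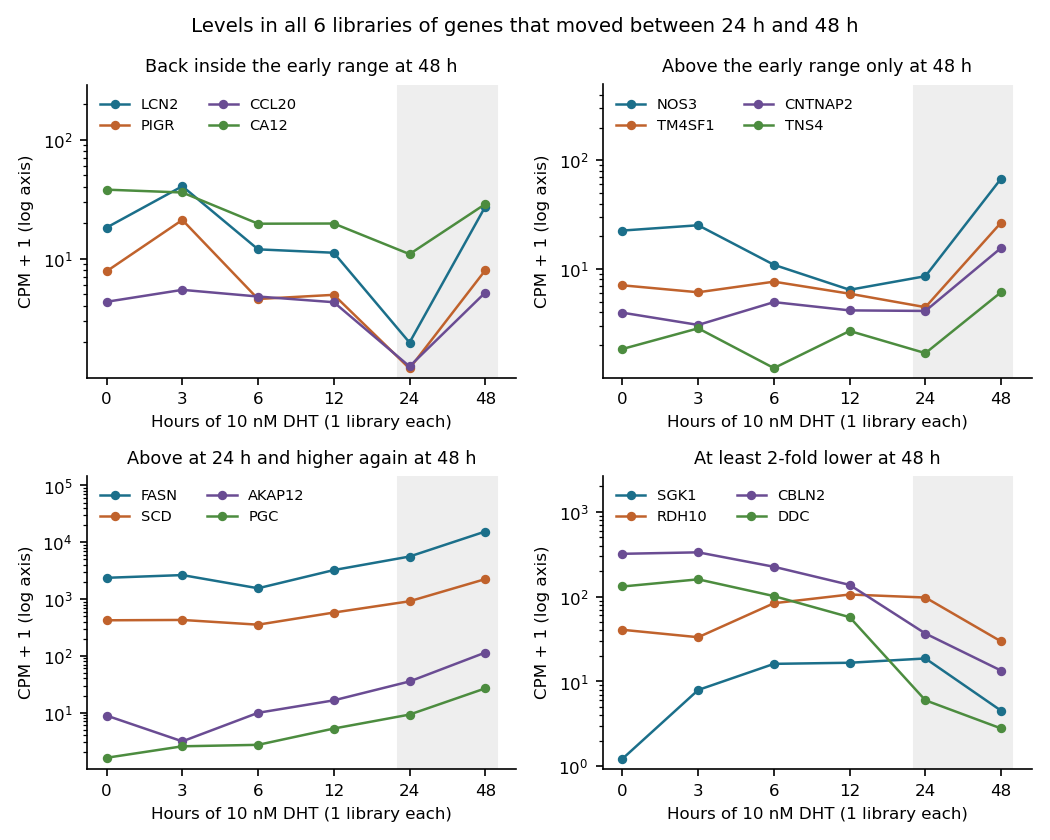
CPM + 1 (vertical, log axis, scaled per panel) in each of the 6 libraries (horizontal, hours of DHT, equally spaced) for 4 genes of each of 4 courses; the grey band marks the interval from 24 h to 48 h. LCN2, PIGR, CCL20 and CA12 dip at 24 h, NOS3, TM4SF1, CNTNAP2 and TNS4 are above their earlier levels only at 48 h, FASN, SCD, AKAP12 and PGC climb through both times, and SGK1, RDH10, CBLN2 and DDC drop.

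Cell division genes had the largest median change of the lists of at least 5 measured genes. All 33 measured mitosis genes were higher at 48 h than at 24 h, with a median of 0.80 against 0.08 for all genes. Of these 9 passed 2-fold and 22 passed 1.5-fold, where 1.53% and 9.67% of all genes did so upward. None passed in the other direction. The return was partial: the summed level of the list was 741 CPM at 0 h, 1088 at 3 h, 879 at 6 h, 672 at 12 h, 309 at 24 h and 533 at 48 h, so 48 h lay above 24 h and below the 4 earlier libraries.

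CENPF, a kinetochore protein of dividing cells, led the list with 17.4, 13.04, 54.3, 30.1, 11.3 and 38.0 CPM. It was 3.37-fold higher at 48 h than at 24 h (interval 2.89 to 3.95), and 6 h was its highest library. HMMR, which binds the spindle, was at 4.63, 2.91, 12.6, 9.76, 2.91 and 11.3 CPM, 3.88-fold higher over the interval (2.87 to 5.29). ASPM, a spindle pole protein, was at 1.75, 1.42, 8.20, 3.16, 1.99 and 7.24 CPM, 3.64-fold higher (2.52 to 5.34). These 3 genes had their highest level at 6 h, and at 48 h each stood above its level at 0 h and 3 h.

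DLGAP5 (DLG7 in the table) and CENPE, both needed to align chromosomes, the checkpoint kinase TTK, the mitotic kinase CDK1 (CDC2 in the table), its activating phosphatase CDC25C and the cytokinesis protein ANLN made up the rest of the 9, with changes from 1.36 down to 1.002. Among them CDK1 was at 6.90 CPM at 0 h, 11.7 CPM at 24 h and 25.6 CPM at 48 h. CDC25C was at 5.69, 1.70 and 4.52 CPM at those times, so it stayed below 0 h. Regulators of the programme moved less. The polo kinase PLK1 was at 41.7, 72.1, 30.1, 25.4, 9.03 and 16.4 CPM, so its 48 h level stayed below the 4 earlier libraries. The factor FOXM1 was at 27.8 CPM and 33.7 CPM, cyclin B1 (CCNB1) at 28.6 CPM and 35.4 CPM, and the kinase AURKB at 4.23 CPM and 4.98 CPM with an interval of the ratio that includes 1 (0.854 to 1.63).

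The mitosis genes have a median GC content of 43.9%, lower than the 49.5% of all genes. With the GC trend removed the list's median was 0.68, against -0.01 for all genes. Past 2-fold 5 of 33 genes remained, CENPF, HMMR, ASPM, DLGAP5 and CDC25C. The part of base composition in the list's change was not tested beyond that. In the promoter windows CCAAT was in 23 of 27 mitosis genes (85.2%, against 43.8% of all) and TTTGAA in 18 of 27 (66.7%, against 13.2% of all). A match is a description of letters only.

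DNA replication genes, which act before mitosis, had a smaller change. None of 34 was past 2-fold, and the list's median was 0.22. RFC4, a clamp loader subunit, was 1.69-fold higher (1.40 to 2.05), and CDC6, which licenses origins, was at 29.5 CPM and 18.3 CPM, a change of -0.66. Their summed level was 717 CPM at 24 h and 794 CPM at 48 h, against 1049 CPM at 0 h. Promoters with the E2F site TTTGGCGC made up 7 of 29 (24.1%) in this list and 1.40% of all.

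Genes that restrain the cycle were also higher. Of 8 inhibitors of cyclin-dependent kinases 6 were past 1.5-fold upward and 1 past 2-fold, against 9.67% and 1.53% of all genes. The median was 0.62. CDKN1C, the p57 inhibitor, was at 5.31, 3.76, 1.86, 3.96, 2.19 and 7.44 CPM, its highest level at 48 h. CDKN1A, the p21 inhibitor and by far the most abundant of them, was at 242 CPM and 198 CPM, and the list's summed level was 339 CPM at 24 h and 328 CPM at 48 h. MYC, a driver of growth, was at 398, 163, 119.7, 120.4, 65.7 and 124 CPM, 1.89-fold higher at 48 h than at 24 h (1.77 to 2.03).

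**Figure D3:**
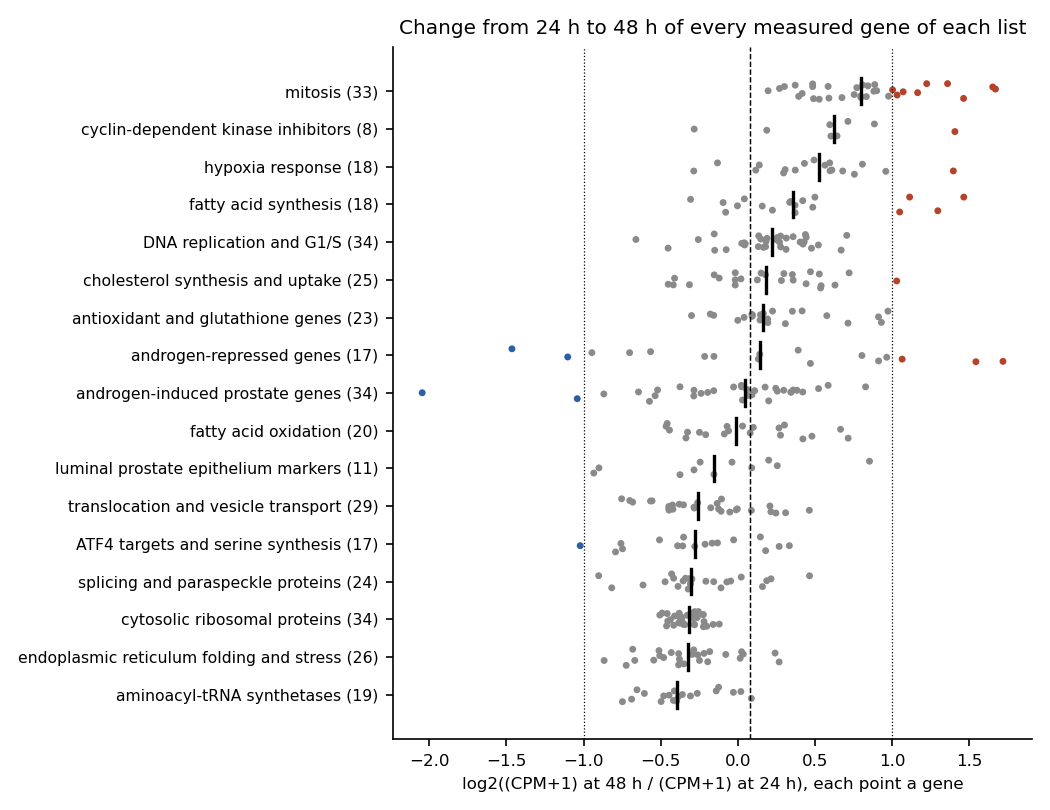
Change from 24 h to 48 h on the log2(CPM + 1) scale of every measured gene of 17 lists, with the number of genes in brackets; the black bar is the list's median, the dashed line the median of all genes (0.08), dotted lines mark 2-fold, and genes past it are red or blue. Mitosis genes all lie above 0 and cytosolic ribosomal proteins all below it.

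Several of the largest changes belonged to genes that were very low at 24 h and back in their early range at 48 h. LCN2, lipocalin 2, a secreted protein that binds bacterial siderophores, read 17.2, 39.5, 10.96, 10.2, 0.971 and 26.3 CPM. Its ratio of 48 h to 24 h was 27.1 (17.3 to 44.8), from 20 counts at 24 h. PIGR, the receptor that carries antibodies across epithelia, read 6.83, 20.1, 3.58, 3.96, 0.194 and 6.98 CPM, with 4 counts at 24 h and a ratio of 35.9 (13.6 to 134).

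CCL20, a chemokine, was at 0.243 CPM at 24 h and 4.19 CPM at 48 h, close to its 3.34 CPM at 0 h. PI3, the elastase inhibitor elafin, had 1 count at 24 h and 39 at 48 h, a ratio of 53.4 with an interval from 9.03 to 2161. These 4 genes had their lowest level of all 6 libraries at 24 h. NLRC5, the activator of class I antigen presentation genes, went from 0.923 CPM to 4.65 CPM after 6.68 CPM at 0 h. The class I list itself, with 8 measured genes, had a median of 0.02 and no other member past 1.5-fold.

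LCN2, PIGR, CCL20 and BIRC3, an inhibitor of apoptosis, are known targets of NF-kB, a transcription factor of inflammation. They were the 4 genes past 2-fold among 14 measured genes of a list of such targets that was drawn up after these values were seen, so their count describes the choice and is not read against the 1.53% of all genes. The list's median was 0.25, and 4 members were below 0, among them TNFAIP3, which restrains NF-kB, with -0.67. Its summed level was 298 CPM at 24 h and 320 CPM at 48 h. CA12, a carbonic anhydrase of the cell surface, was at 37.0, 34.9, 18.6, 18.7, 9.91 and 27.7 CPM and was the one member of 18 hypoxia genes past 2-fold. That list had a median of 0.53, 0.43 with the GC trend removed, and 8 members past 1.5-fold upward, against 9.67% of all genes. Among the 8 were BNIP3L, a mitophagy receptor, at 183 CPM and 309.6 CPM, and the oxidase ERO1L at 30.5 CPM and 54.0 CPM.

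DIO3, which inactivates thyroid hormone, had the largest change of all, 4.03. It fell through the course from 31.9 CPM at 0 h to 26.6, 12.9, 4.70 and 2.38 CPM at 24 h and stood at 54.4 CPM at 48 h, 22.8-fold above 24 h (17.1 to 31.1). An antisense RNA is known from this locus, and the use of strand in counting is not given in the sources used here, so its reads may include that RNA. ATG9B, a scramblase of autophagy, had the same shape at 1.603 CPM and 14.8 CPM. NOS3, the endothelial nitric oxide synthase, which overlaps ATG9B on the opposite strand, was at 21.5, 24.2, 9.92, 5.43, 7.58 and 66.9 CPM, 8.82-fold higher at 48 h (7.45 to 10.5). Reads from the overlap of this pair cannot be told apart without strand.

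Some genes were above their early range only at 48 h. TM4SF1, a membrane protein of the tetraspanin-like L6 family, stayed between 3.45 and 6.64 CPM through 24 h and was at 25.7 CPM at 48 h, 7.46-fold higher (5.78 to 9.75). CNTNAP2, a neurexin-related adhesion protein, stayed between 2.05 and 3.95 CPM and was at 14.6 CPM at 48 h. TNS4, a focal adhesion protein, went from 0.680 CPM to 5.12 CPM. For these 3 genes the 48 h library stood above each of the 5 others.

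Other genes climbed at both 24 h and 48 h. AKAP12, a scaffold of protein kinase A, was at 7.89, 2.13, 8.95, 15.5, 34.4 and 113 CPM, 3.29-fold higher over the interval (3.01 to 3.60). PGC, a pepsinogen, read 0.607, 1.56, 1.72, 4.26, 8.26 and 25.8 CPM, higher in each later library. PTN, a growth factor, went from 1.51 CPM to 6.78 CPM, and ANGPT2, a ligand of the vessel receptor TIE2, from 23.4 CPM to 61.4 CPM. GDF15, a secreted stress cytokine, read 2324 CPM and 4659 CPM, a change of 1.003 at the edge of the rule that dropped under 2-fold with the GC trend removed (0.90).

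The enzymes that tag androgens for export divided. UGT2B11 and UGT2B28, members of the family that links glucuronic acid to steroids, went from 4.27 CPM to 16.3 CPM and from 1.21 CPM to 5.45 CPM, ratios of 3.82 (2.99 to 4.94) and 4.49 (2.84 to 7.33). UGT2B17, which glucuronidates DHT and testosterone, was at 23.6, 28.0 and 24.9 CPM at 0, 3 and 6 h, 3.55 CPM at 24 h and 1.79 CPM at 48 h, 1.98-fold lower over the interval (1.26 to 3.20). UGT1A1, which acts on bilirubin, went from 3.40 CPM to 11.2 CPM. The genes of these families are close copies of each other, and reads may be shared among them. The 11 measured genes of androgen glucuronidation and steroid enzymes had a median of 0.11, which is 0.03 above that of all genes, and -0.29 relative to all genes when a mean of at least 100 counts was asked for.

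Genes of the classical androgen response were mostly level. Among 34 measured androgen-induced genes the median was 0.04, none was past 2-fold upward and 2 were past it downward, SGK1 and TBX15. With the GC trend removed the median was -0.14. KLK3, which encodes prostate-specific antigen, was at 10012 CPM and 11950 CPM, its close copy KLK2 at 2288 CPM and 2628 CPM, and TMPRSS2, a surface protease, at 4479 CPM and 4554 CPM. FKBP5, a chaperone partner of steroid receptors, was at 2286 CPM and 2050 CPM, and STEAP4, a metalloreductase, at 319 CPM and 344 CPM. At 24 h the level of each of these 5 genes was above its levels at 0 h, 3 h, 6 h and 12 h. The list's summed level was 47328 CPM at 24 h and 49308 CPM at 48 h, after 10224 CPM at 0 h.

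SGK1, a kinase of salt and survival signalling, had the largest decrease. Its levels were 0.228, 6.94, 15.1, 15.6, 17.7 and 3.52 CPM, 5.02-fold lower at 48 h than at 24 h (3.75 to 6.83) and still above 0 h. RDH10, which oxidises retinol toward retinoic acid, was at 39.7, 32.2, 82.7, 105, 96.7 and 28.6 CPM, 3.37-fold lower (3.04 to 3.75), which put 48 h below every other library. TBX15, a T-box factor, was at 29.9 CPM at 24 h and 14.02 CPM at 48 h, and NPPC, a natriuretic peptide, at 14.6 CPM and 5.98 CPM. SGK1, TBX15 and NPPC had climbed in each library up to 24 h and were lower at 48 h.

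Members of a list of androgen-repressed genes went both ways over the interval, and not all of them had been lowered in this course. Among the 17 measured the median was 0.14, with 3 past 2-fold upward (UGT2B11, UGT2B28 and CLU) and 2 downward (ID3 and DDC). With the GC trend removed the median changed sign, to -0.15 over the 15 genes with a GC value. Of these 15 genes 2 were past 2-fold upward and 3 downward. CLU has no GC value, so it is not among them. Relative to all genes this median did not move beyond counting error. ID3, an inhibitor of bHLH factors, was at 0.910 CPM at 0 h, 3.59 CPM at 24 h and 0.665 CPM at 48 h, and the UGT2B genes were higher at 24 h than at 0 h. DDC, which makes dopamine and serotonin, was at 131, 159, 101, 56.3, 5.003 and 1.79 CPM. CBLN2, a synapse organiser that is not in this list, was at 319, 332, 224, 137, 35.7 and 12.4 CPM, 2.88-fold lower over the interval (2.45 to 3.40). CLU, the chaperone clusterin, had gone from 50.5 CPM at 0 h to 18.2 CPM at 24 h and stood at 39.1 CPM at 48 h. FOLH1, which encodes the membrane antigen PSMA, had gone from 479.7 CPM at 0 h to 133 CPM at 24 h and stood at 261 CPM at 48 h. AMACR, the racemase used to stain prostate cancer, is in a list of prostate antigens and not in the androgen-repressed list. It read 281 CPM and then 536 CPM, above its 4 earlier libraries.

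Some genes of amino acid supply and tRNA charging were at their highest at 24 h and lower at 48 h. ATF4, a factor that drives such genes, was at 265, 284, 227, 218, 418 and 241 CPM, 1.74-fold lower at 48 h (1.67 to 1.80). ASNS, which makes asparagine, was at 161 CPM and 94.6 CPM, after 71.4 to 93.4 CPM up to 12 h. MTHFD2, of mitochondrial folate metabolism, was at 123 CPM and 72.8 CPM. CHAC1 was at 34.8 CPM and 16.6 CPM, 2.09-fold lower (1.81 to 2.43). These 4 genes had their highest level of all 6 libraries at 24 h.

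In the list of 17 ATF4 targets and serine synthesis genes the median was -0.28, with 1 gene past 2-fold downward. Past 1.5-fold there were 4 downward, against 1.59% of all genes, and none upward. The 14 amino acid transporters had a median of -0.12 with 2 past 1.5-fold downward, and their summed level, 1110 CPM at 0 h, was 2396 CPM at 24 h and 2378 CPM at 48 h. The 19 tRNA synthetases had a median of -0.40, against 0.08 for all genes, the lowest among the lists of at least 5 measured genes. With the GC trend removed it was -0.44, against -0.01 for all genes. Of the synthetases 17 were below 0 and 4 past 1.5-fold downward, against 1.59% of all genes. These 4 were the enzymes WARS1, CARS1, FARSB and GARS1 (WARS, CARS and GARS in the table). WARS1, which charges the tRNA of tryptophan, was at 129, 156, 146, 179, 264 and 157 CPM, highest at 24 h. Of the 6 synthetase genes with a printed TGATGCAA match, CARS1 changed by -0.69, AARS1 by -0.45, MARS1 by -0.42, IARS1 by -0.40, TARS1 by -0.39 and NARS1 by 0.02. The match was thus present in members with and without a lower level. The list's summed level was 5944 CPM at 24 h and 4544 CPM at 48 h, against 4268 to 4403 CPM before.

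**Figure D4:**
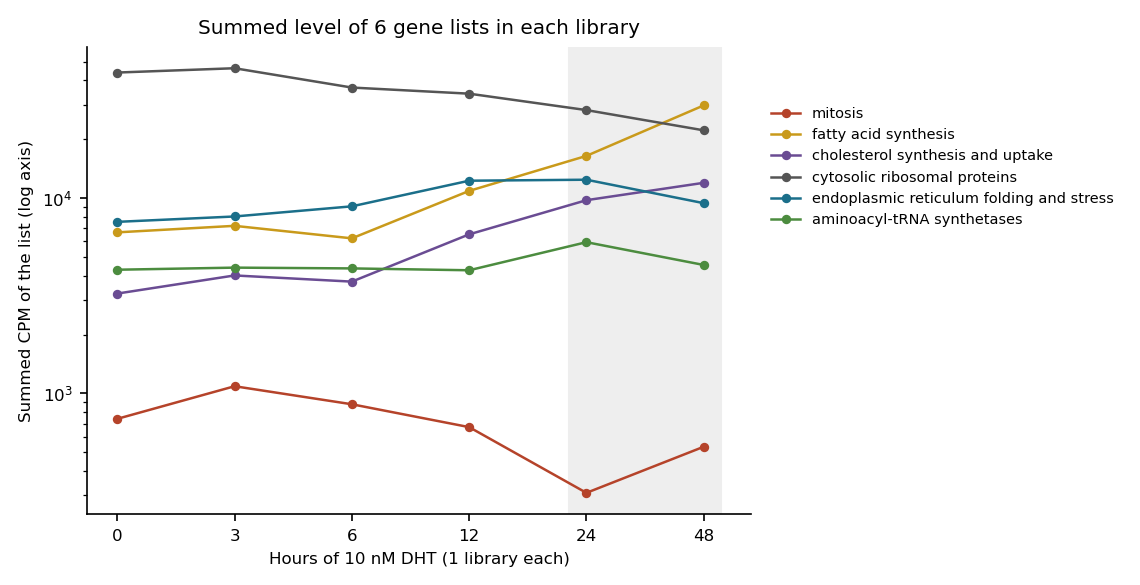
Summed CPM (vertical, log axis) of 6 gene lists in each of the 6 libraries (horizontal, hours of DHT, equally spaced); the grey band marks the interval from 24 h to 48 h. Fatty acid synthesis goes from 16441 to 29813 CPM and mitosis from 309 to 533 CPM, while ribosomal proteins, chaperones and tRNA synthetases are lower at 48 h.

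Chaperones of the endoplasmic reticulum were lower as well. Of 26 measured genes of folding and stress in that compartment 21 were below 0, with a median of -0.32. Past 1.5-fold there were 4 downward, against 1.59% of all genes, and none upward. CALR, calreticulin, which folds glycoproteins, was at 2547, 2782, 2205, 2903, 2941 and 1780 CPM, 1.65-fold lower (1.63 to 1.68) and at its lowest level of the course. CRELD2, a disulfide isomerase, was at 153 CPM and 83.4 CPM, and HYOU1, a large chaperone, at 1116 CPM and 695 CPM. The main chaperone HSPA5 was at 1253 CPM and 878 CPM, a change of -0.51. The summed level was 12413 CPM at 24 h and 9416 CPM at 48 h, against 7553 CPM at 0 h.

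The 29 genes of translocation and vesicle transport had a median of -0.26, with 3 past 1.5-fold downward, against 1.59% of all genes. SEC24D had the lowest change, -0.75. Outside that list, CREB3L4, an androgen-induced factor of the secretory pathway, was at 90.9, 91.8, 122, 322, 417 and 228 CPM, 1.83-fold lower (1.76 to 1.90). CCAAT was in 21 of 25 chaperone promoters (84.0%), a share close to that of the mitosis and cholesterol genes, whose medians lay on the other side of 0.

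Cytosolic ribosomal proteins, the parts of the translating ribosome, were lower without exception. All 34 measured members were below 0, from -0.51 to -0.12, with a median of -0.32, although none was past 1.5-fold. RPL3 was at 3686, 3791, 3018, 2809, 2359 and 1678 CPM, lower in each library after 3 h. The summed level of the list was 43915 CPM at 0 h, 28210 CPM at 24 h and 22221 CPM at 48 h. These are shares of the counted RNA and not amounts per cell. The elongation factor EEF1A1 went from 3067 CPM to 2111 CPM, and 18 genes of ribosome biogenesis had a median of -0.27.

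**Figure D5:**
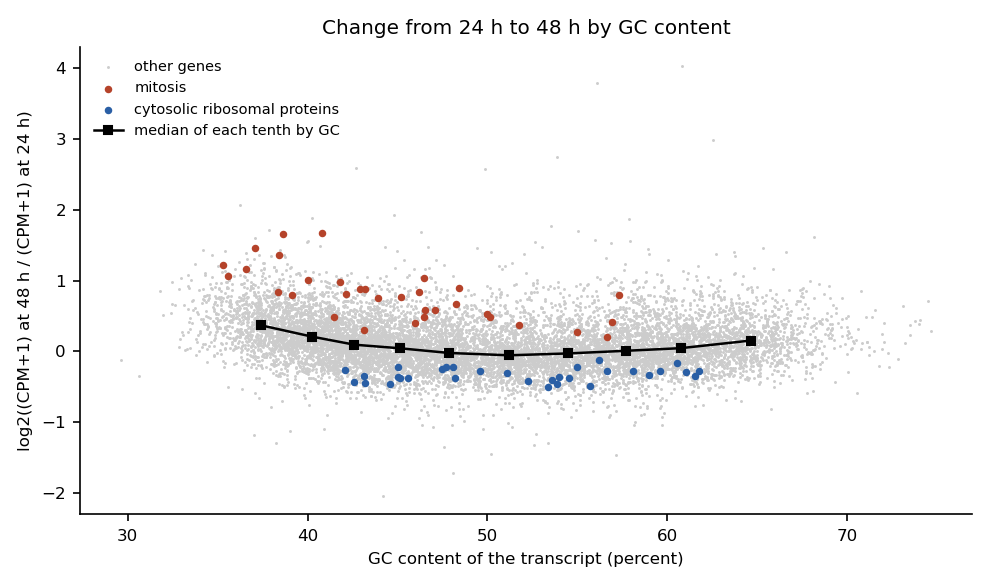
Change from 24 h to 48 h on the log2(CPM + 1) scale (vertical) against the GC content of the transcript in percent (horizontal), each point a gene; squares join the medians of genes ranked by GC content and cut into 10 classes of equal size. Mitosis genes (red) lie above the medians for their GC content, and cytosolic ribosomal proteins (blue) below.

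Splicing factors were lower too, with a median of -0.31 over 24 genes and 3 past 1.5-fold downward, against 1.59% of all genes. HNRNPA1, which represses splice sites, was at 502, 486, 520.0, 508, 281 and 159 CPM, lowest at 48 h. Mitochondrial ribosomal proteins, by contrast, had a median of -0.01 over 27 genes, and oxidative phosphorylation had -0.01 over 38, with none past 1.5-fold in either.

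Of the 8 genes that lost most CPM, 3 were CALR, EEF1A1 and the elongation factor EEF2, and the other 5 had climbed through the course. ODC1, which makes putrescine for polyamines, was at 521, 859, 1134, 3188, 4585 and 2751 CPM. NCAPD3, a condensin subunit, was at 79.3, 145, 692, 2028, 3982 and 2547 CPM. ADAMTS1, a secreted protease, went from 2462 CPM to 1401 CPM. These 3 genes had climbed in each library up to 24 h, were lower at 48 h and stayed above their level at 0 h.

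The luminal keratins KRT8 and KRT18, which pair in filaments, did the same. KRT8 was at 344, 456, 594, 1451, 2170 and 1135 CPM, 1.91-fold lower (1.88 to 1.95), and KRT18 at 393, 420.4, 454, 1037, 1529 and 819 CPM, 1.87-fold lower (1.83 to 1.91). KRT19, a simple epithelial keratin at a far lower level, was at 2.87 CPM and 5.98 CPM. Among 11 luminal markers the summed level was 20376 CPM at 24 h and 20401 CPM at 48 h.

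Markers of other cell types were in part absent. KRT5 and KRT17 of basal cells, CHGB of neuroendocrine cells, DCN and PDGFRA of fibroblasts, PTPRC and CD3D of leukocytes and KDR of endothelium had no count in either library. Of 11 fibroblast markers 3 passed the count minimum, and all 11 summed to 34.8 CPM and 47.1 CPM, mostly COL1A1. ACTA2, an actin of smooth muscle and myofibroblasts, was past 2-fold, at 2.19 CPM and 9.17 CPM. Of 10 basal markers 4 were measured, and LAMB3, a laminin chain, was past 2-fold from 5 counts to 36. The neuroendocrine list summed to 2046 CPM and 2741 CPM, nearly all of it SYT4, with DDC past 2-fold downward. For leukocytes 1 of 11 was measured and for endothelium 2 of 8, none past 2-fold, with VWF of endothelium past 1.5-fold upward (0.71). Of 12 mesenchymal markers 5 were measured, with a median of 0.35. In that list SNAI1, a repressor of epithelial genes, had 0.98, and fibronectin (FN1) was at 1313 CPM at 0 h, 219 CPM at 24 h and 386 CPM at 48 h. The part of other cells in any change was not tested.

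Antioxidant genes of the NRF2 type were higher in a few members. Of 23 genes 4 were past 1.5-fold upward, where 9.67% of all genes were, and none past 2-fold. The median was 0.16, against 0.08 for all genes. TXNRD1, thioredoxin reductase, was at 337, 378, 475, 499, 597 and 1138 CPM, and NQO1, a quinone reductase, at 442 CPM at 24 h and 832 CPM at 48 h. TKT, the transketolase of the pentose phosphate pathway, which like ME1 serves NADPH supply, was at 832, 915, 496, 482, 414 and 813 CPM. The first of these had its highest level at 48 h, and TKT came back to its level before treatment.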

How the data were processed

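RNA was sequenced from 6 LNCaP cultures, 1 library per time of DHT, on an Illumina GAIIx per the labels' protocols. The submitters' processing notes name genome build hg19; nothing used here names the aligner, the counter or the use of strand. The authors deposited whole-number counts per RefSeq transcript and, per the file headers, the same counts as RPM, scaled by the authors to each library's reads.

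The counts were used. Of 18051 lines 50 exact repeats were dropped, the 18001 transcripts were summed by symbol to 17990 genes, and CPM were taken over totals of 13179917 to 20587956 counts, where an absent gene could still have up to 3 counts, 0.146 CPM at 24 h and 0.199 CPM at 48 h. No molecular identifiers are named, so these limits and the intervals reflect counting error alone. Genes averaging 20 counts or more, 11916 in all, entered, with a pseudocount of 1 CPM. Ratios have exact conditional binomial intervals at 95%. With 1 library per group no test was run. GC content and length came from GENCODE 29 transcripts for 11140 genes, and the trend was a lowess curve (span 0.3). Motifs were sought in RefSeq windows on GRCh38.p14, any window of a gene counting; 2824 genes had over 1. TMM and median-of-ratios factors came from edgeR 4.0.16 in R 4.3.3; the rest ran in Python 3.11.15. On counts simulated with counting error alone, 193 of 200 genes changed by known folds larger than the rule were recovered. Spread between cultures was not simulated.

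The interval, members and lists were chosen with earlier results of these data known. Genes named were the 15 largest changes per direction, 8 genes gaining and 8 losing most CPM, up to 4 per list, 5 per course class, and known androgen targets; other names are list members or were chosen after their values were seen. Some genes of the rule and of the lists are not reported here. Left out were transcripts below the minimum. Alternatives were other scalings, pseudocounts of 0.25 CPM and 5 CPM, count minimums, GC and length trends, other folds and other early ranges.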

Additional observations from a re-analysis of the deposited data

How the results depend on the processing

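The count of higher genes, 182, was 336 with a pseudocount of 0.25 CPM, 45 with 5 CPM, 84 with the GC trend and 116 with the length trend removed, and 99 with a mean of at least 100 counts. It was 1152 at 1.5-fold, 21 at 3-fold and 86 with the whole interval past 2-fold. The count of lower genes, 22, was 37 and 5 with those pseudocounts, 190 at 1.5-fold, 2 at 3-fold and 10 with the whole interval past 2-fold. Of 502 list medians under alternatives, taken relative to all genes, 10 moved beyond counting error. Among these 10, those of glucuronidation and housekeeping genes changed sign. With the GC trend removed the medians that moved were -0.13 for androgen-induced genes (main value -0.04), 0.19 for fatty acid synthesis (0.28), -0.35 for ribosomal proteins (-0.40), 0.14 for antioxidant genes (0.09), 0.018 for housekeeping genes (-0.08) and -0.16 for luminal markers (-0.24). Mitosis had 0.49 with a pseudocount of 5 CPM (0.72), vesicle transport -0.28 with the length trend removed (-0.34), and polyamine synthesis -0.15 and glucuronidation -0.29 with a mean of at least 100 counts (-0.24 and 0.03). Counts of course classes were recomputed with early ranges chosen after seeing the data. The 47 genes back in range became 27 with a range widened by 2-fold, and the 39 newly above became 20 there and 65 against 0 h and 3 h. The 11 above at both times became 19 with a range not widened and 43 against 0 h and 3 h, and the 82 inside at both became 27, 127 and 14 with a range not widened, widened by 2-fold, and of 0 h and 3 h. Of 62 named genes past 2-fold 24 stayed past it under the 8 settings run and 62 kept their direction. The cause was not tested where a construction does not show it.

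Each time had 1 library, so culture, library and time cannot be told apart, and leaving out a replicate was not possible. No paired analysis was possible because each group has 1 library. Depth limits the low genes most: PI3 had 1 count at 24 h and PIGR 4, and their ratios have wide intervals.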

Other observations

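Some lists not described above had single members past 2-fold around a median near that of all genes. NR1D2, a nuclear receptor that represses clock genes, was at 21.4, 20.8, 58.8, 24.4, 20.4 and 53.8 CPM in the order of time, a change of 1.35 in a clock list of 15 genes with a median of 0.26. In the interferon list of 19 genes, with a median of 0.21, IFI44 was past 2-fold with 1.197, and IFITM1, IFIT2 and the RNA sensor IFIH1 were past 1.5-fold with 0.97, 0.93 and 0.69. Among 22 genes of p53 targets and apoptosis BIRC3, an inhibitor of apoptosis, was past 2-fold with 1.34. GADD45A, which slows the cycle, BBC3, a promoter of cell death, and RRM2B, which supplies nucleotides for repair, were past 1.5-fold with 0.93, 0.76 and 0.67, and the median was 0.11.

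The polyamine pathway divided. ODC1 was 1.67-fold lower (1.65 to 1.69) and SRM, which makes spermidine, changed by -0.56, while AMD1, which supplies the aminopropyl donor, went from 789 CPM to 1191 CPM, 1.51-fold higher (1.48 to 1.54), although with the GC trend removed its change was 0.26. SAT1, which acetylates polyamines for export, was at 797 CPM and 1105 CPM.

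Genes named ZNF with a number, mostly zinc finger repressors, had 9 of 420 members past 2-fold upward and none downward. Over all genes 182 of 11916 were past it upward (1.53%) and 22 downward (0.185%), so the ZNF count is not read as a trait of these genes. With the GC trend removed none of them was past 2-fold upward, against 0.754% of all genes, and their median was -0.03. Growth factor genes chosen after their values were seen include EGF, at 7.63 CPM and 22.9 CPM, the KIT ligand KITLG, at 2.19 CPM and 7.18 CPM, and GAS6, at 21.9 CPM and 47.8 CPM after 104 CPM at 0 h. The water and glycerol channel AQP3, likewise chosen, was at 42.4 CPM and 108 CPM, above its 5 other libraries.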
